A study of Mus musculus with 4 samples.

Results

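The imprinted domain on the short arm of human chromosome 11, band 11p15, runs from H19 and IGF2 to KCNQ1, KCNQ1OT1 and CDKN1C, and its ATAC-seq peaks in the TRAFTAC dataset are described here. Its peaks were taken by position alone, as those of the deposited list that overlap 1980000 to 2160000 (the H19-IGF2 segment, 180 kb) or 2440000 to 2950000 (the KCNQ1-CDKN1C segment, 510 kb) of chromosome 11 in GRCh38. The first segment held 9 peaks and the second 15, together 24 of the 48751 peaks of the list and of the 2455 peaks of chromosome 11. The 280 kb between the segments held another 15 peaks, which are given only for comparison.

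Imprinted genes are expressed mainly from the copy inherited from a given parent. H19 makes a long non-coding RNA from the maternal copy and IGF2, a fetal growth factor, is expressed from the paternal copy. A control region near H19 is bound by the insulator protein CTCF on the maternal copy, where it keeps shared enhancers from IGF2, and is methylated on the paternal copy. In the other cluster KCNQ1 encodes a potassium channel subunit, and CDKN1C encodes p57, an inhibitor of cyclin-dependent kinases that restrains growth. Both are mainly maternal during development. KCNQ1OT1 is a long non-coding RNA transcribed from the paternal copy, antisense to KCNQ1 and from a promoter within that gene, and it silences its neighbours in cis. Errors of imprinting in this domain cause the Beckwith-Wiedemann overgrowth syndrome and the Silver-Russell growth restriction syndrome.

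HEK293 is an established human cell line from embryonic kidney with an abnormal chromosome number, so that the parental copies need not be present in equal numbers. All 4 libraries came from HEK293 cells transfected for 6 h with 1 μg/mL of a plasmid encoding dCas9 fused to HaloTag7 together with 25 nM TRAFTAC, and then kept for 19 h with 5 ng/mL TNF-α and 25 μM HP14, the PROTAC against the HaloTag. All received DNase at 200 units/mL for the last 30 min before harvest. The groups differed in the DNA of the TRAFTAC, which carried the NFkB motif in 2 libraries (NFkB TRAFTAC) and a scrambled sequence in the other 2 (scrambled TRAFTAC). The sample labels call the organism a mouse, whereas the cell line and the assembly are human.

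ATAC-seq marks accessible DNA by the insertions of the Tn5 transposase. The peaks were called on the 4 libraries merged, so each value below is that of the pooled fragments, with neither a replicate error nor a contrast between the TRAFTACs, and the parental copies are not separated. The fold enrichment is a linear ratio of the fragments stacked at the summit of a peak (the pileup) to the local background expected there. The pileup and the background could be recovered, from the listed fold enrichment together with its p-value, for all 39 peaks of the domain and of the stretch between. Intervals are 95% intervals that cover counting error only. Gene positions and sequences of GRCh38 were not used here, so peaks are given by position and are not assigned to a gene, exon, intron or promoter.

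The H19-IGF2 segment opened with a pair of weak peaks. The first lay from 1997963 to 1998540 and had a summit pileup of 24 fragments and a fold of 3.27 (2.14 to 4.80). The second lay from 2002577 to 2003082, with 28 fragments and a fold of 3.90 (2.63 to 5.57). Their −log10 q-values were 5.24 and 7.96, and their fold intervals overlapped. The next peak, from 2036681 to 2037298, had 41 fragments and a fold of 5.66 (4.10 to 7.63). The local background of these 3 peaks, 6.42 to 6.66 fragments, was close to the genome-wide background of 6.32.

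The strongest peak of this segment stood in its middle, from 2089173 to 2089978. It had a pileup of 168 fragments over a background of 12.6, a fold of 12.4 (10.6 to 14.5) and a −log10 q-value of 121. Its interval lay above those of the other 8 peaks of the segment, the highest of which reached 7.63. In the list as a whole, 88.5% of the peaks had a lower fold enrichment. The nearest peak on its telomeric side was 51874 bp away, which was the longest gap of the segment. On its other side, after 10039 bp, followed the weakest peak of the segment, from 2100018 to 2100641, with 24 fragments, a fold of 2.72 (1.78 to 3.997) and a −log10 q-value of 3.68.

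The remaining 4 peaks of the H19-IGF2 segment lay in close pairs near its end towards the centromere. The first pair, from 2137304 to 2138201 and from 2138816 to 2139496, was separated by 614 bp and had folds of 3.51 (2.61 to 4.64) and 3.74 (2.82 to 4.88). The pileups of this pair, 48 and 53 fragments, differed by less than counting error. The second pair, from 2151512 to 2152336 and from 2156453 to 2157043, had 93 and 73 fragments and folds of 5.05 (4.09 to 6.18) and 3.83 (3.01 to 4.80). Their local background was 12.9 to 18.3 fragments, above that of the first 3 peaks. All 9 peaks were of moderate width, between 506 and 898 bp.

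**Figure D1:**
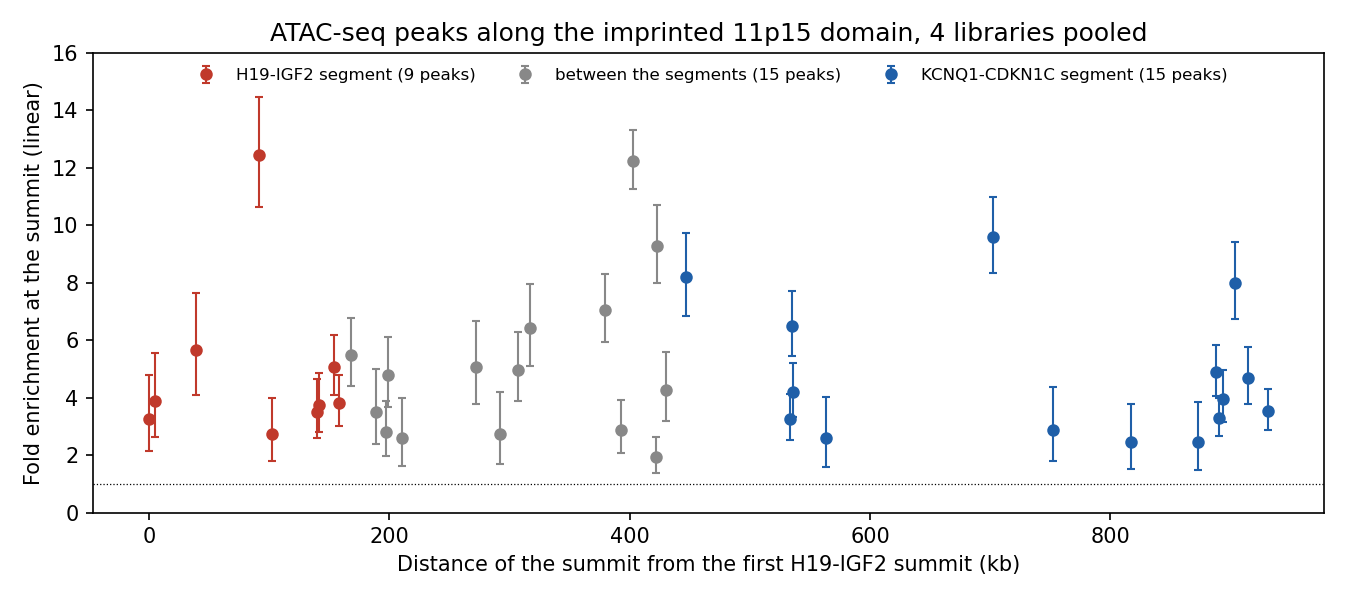
Fold enrichment at the summit (linear, vertical axis) of each peak against the distance of its summit from the first summit of the H19-IGF2 segment in kb (horizontal axis), with 95% intervals from the Poisson counting error of the summit pileup. The H19-IGF2 segment has a lone high peak at a fold of 12.4, and the KCNQ1-CDKN1C segment has peaks at 8.20, 9.59 and 8.00, with lower peaks and long gaps between.

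The KCNQ1-CDKN1C segment began with a lone, broad peak from 2444367 to 2445399, whose pileup was 127 fragments, with a fold of 8.20 (6.85 to 9.75) and a −log10 q-value of 70.0. No peak was listed in the next 85933 bp. Then came 3 peaks within 2723 bp, of 583, 482 and 496 bp in width. The middle peak of the trio, from 2532800 to 2533281, had 130 fragments and a fold of 6.51 (5.45 to 7.72). Its neighbours, from 2531333 to 2531915 and from 2533560 to 2534055, had folds of 3.27 (2.54 to 4.14) and 4.19 (3.33 to 5.20), and both intervals lay below that of the middle peak. The 3 summits were 1397 and 1027 bp apart.

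The peak with the highest fold enrichment, pileup and −log10 q-value of this segment lay from 2699313 to 2700799. It was 1487 bp wide, with 206 fragments over a background of 20.6, a fold of 9.59 (8.34 to 10.99) and a −log10 q-value of 125. It stood apart on both sides, with 137436 bp free of peaks before it and 49732 bp after it. Set beside the strongest peak of the H19-IGF2 segment, it had more fragments (206 against 168) but also a higher background (20.6 against 12.6), so that its fold was the lower. The intervals of these folds overlapped, and the −log10 q-values, 125 and 121, were close.

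Between the trio and the long run of peaks at the end of the segment, the list held 4 weak peaks besides this strong one. They were 265 to 532 bp wide, had 17 to 20 fragments at the summit and folds of 2.44 to 2.87, and their −log10 q-values of 1.97 to 3.42 were the 4 lowest of the segment. Their local background was 6.32 to 6.78 fragments, at or near the genome-wide value. The weakest by q-value, from 2870728 to 2871259, exceeded only 0.593% of the list. With 17 to 20 fragments over 4 libraries, or 4.25 to 5.00 per library on average, the counting error alone was 22.4% to 24.3% of the pileup.

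The last 6 peaks of the segment, from 2884647 to 2931005, took up 46359 bp, or 9.09% of its length. Of these, 5 formed a run with gaps under 10000 bp. The first, from 2884647 to 2886138, was 1492 bp wide with 118 fragments and a fold of 4.89 (4.05 to 5.84). The next, from 2888237 to 2888646, had 94 fragments and a fold of 3.28 (2.66 to 4.01) over a background of 28.0 fragments, the highest in either segment. A peak from 2892117 to 2893064 had a fold of 3.97 (3.14 to 4.96). The strongest of the run, from 2901751 to 2902856, had 141 fragments, a fold of 8.00 (6.75 to 9.43) and a −log10 q-value of 76.0, and its interval lay above those of the other 5. The run closed with a peak from 2912638 to 2913374, with 87 fragments and a fold of 4.69 (3.77 to 5.77).

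The widest peak of either segment was the last, from 2929015 to 2931005, at 1991 bp. It was wider than 98.1% of the list but had a pileup of only 97 fragments and a fold of 3.54 (2.87 to 4.305). The next peak of chromosome 11 followed after 60559 bp, outside the segment. All 6 closing peaks had a background of 16.7 to 28.0 fragments, and their median fold was 4.33, whereas the 9 peaks before them ranged from 2.44 to 9.59 with a median of 3.27.

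**Figure D2:**
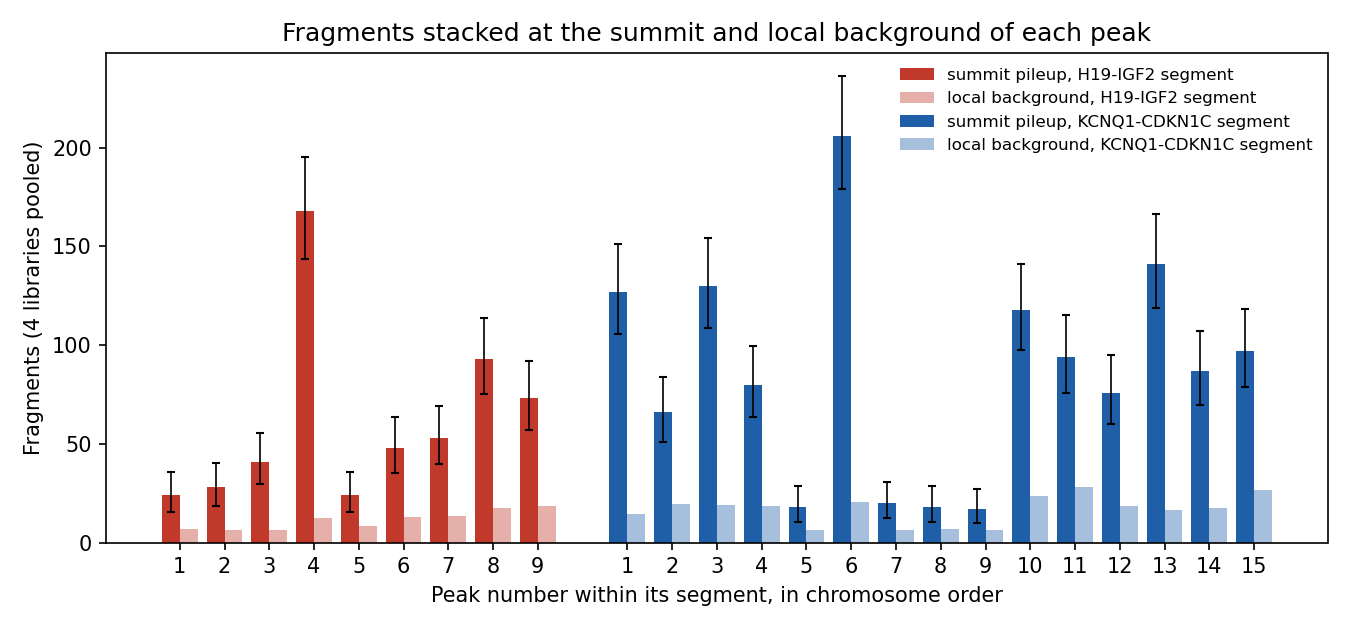
Fragments at the summit (dark bars, with 95% Poisson intervals) and local background (pale bars) of each peak in chromosome order, on a linear axis in fragments of the 4 pooled libraries. Pileups run from 24 to 168 in the H19-IGF2 segment and from 17 to 206 in the KCNQ1-CDKN1C segment, and the peaks numbered 5, 7, 8 and 9 of the latter are the 4 weak ones.

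In number, the H19-IGF2 segment had 50.0 peaks per Mb (22.9 to 94.9, exact Poisson interval) and the KCNQ1-CDKN1C segment 29.4 (16.5 to 48.5), so the densities did not differ beyond their counting intervals. The stretch between had 53.6 per Mb (30.0 to 88.4). Chromosome 11, up to its last peak, had 18.2 peaks per Mb, and the interval of the H19-IGF2 segment lay above this value while that of the KCNQ1-CDKN1C segment included it. The neighbourhood of the domain was uneven, with 65.7 peaks per Mb between the chromosome end and the first segment and 22 per Mb in the 2 Mb beyond the second. Among 750 tiles of 180 kb along chromosome 11, the median number of peaks was 2 (quartiles 0 and 5), against 9 in the H19-IGF2 segment. Among 264 tiles of 510 kb it was 7 (quartiles 2 and 14), against 15 in the KCNQ1-CDKN1C segment. Peaks covered 3.40% of the H19-IGF2 segment, 2.40% of the KCNQ1-CDKN1C segment and 1.29% of chromosome 11. Neighbouring peaks are not independent of each other, which these intervals do not take into account.

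The spacing was irregular in both segments. The median gap between neighbouring peaks was 11027 bp in the H19-IGF2 segment (8 gaps, 614 to 51874 bp) and 14514 bp in the KCNQ1-CDKN1C segment (14 gaps, 278 to 137436 bp), compared with 16994 bp on chromosome 11. The KCNQ1-CDKN1C segment had 4 gaps of at least 50000 bp among its 14, which together made up 67.2% of its length. The H19-IGF2 segment had 1 among its 8, which made up 28.8% of its length. On chromosome 11, 582 of the 2454 gaps (23.7%) were that long. Such gaps made up 77.2% of the length of chromosome 11, where single gaps reached 3201699 bp, longer than either segment. Gaps that cross a border of a segment were not counted in the segments, so these shares of length are not directly comparable. The longest gap of the domain, from the end of a weak peak at 2561876 to the start of the strongest peak of the segment at 2699313, was reached or exceeded by 180 of the 2454 gaps of chromosome 11 (7.34%). Long gaps of this size are therefore not rare on this chromosome.

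**Figure D3:**
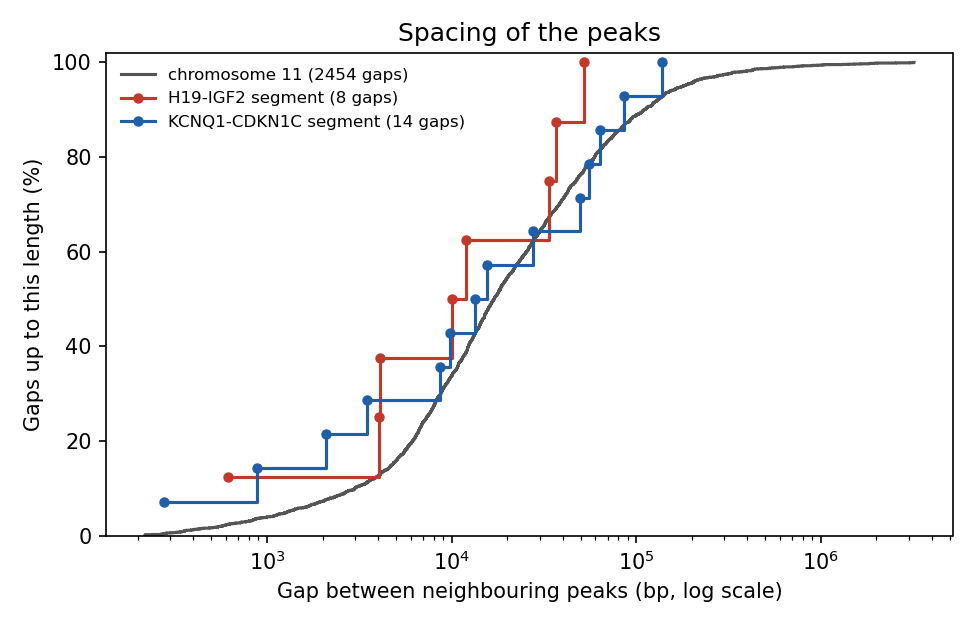
Cumulative share of gaps between neighbouring peaks (percent, vertical axis) up to a given length (bp, log scale) in each segment and on chromosome 11. The 8 gaps of the H19-IGF2 segment end at 51874 bp and the 14 gaps of the KCNQ1-CDKN1C segment at 137436 bp, while chromosome 11 has 180 gaps at least as long as the latter.

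All 5 peaks of the segments with a −log10 q-value under 5 were at least 10000 bp from the nearest peak on either side, against 5 of the other 19. For 1 of the 5, from 2100018 to 2100641, this distance was 10039 bp, just past the limit. The pair that opens the H19-IGF2 segment, with −log10 q-values of 5.24 and 7.96 just above this value, was 4036 bp apart. On chromosome 11, 40.0% of the 295 peaks under this value and 47.1% of the 2160 others were as far from their neighbours. Of the 24 peaks, 19 had a −log10 q-value of at least 5 (79.2%, Wilson interval 59.5% to 90.8%), close to the 86.5% of the list. A −log10 q-value of at least 100 was reached by 2 of the 24, the strongest peak of each segment, or 8.33% (2.32% to 25.9%), whereas the list had 21.5%.

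The median fold enrichment of the domain was below that of the list. It was 3.83 in the H19-IGF2 segment (95% order-statistic interval 3.27 to 5.66) and 3.97 in the KCNQ1-CDKN1C segment (2.87 to 6.51), and 3.86 over both (3.27 to 5.05), while the list had 5.60 and chromosome 11 had 5.74. The interval over both segments lay below the value of the list, but those of the single segments did not. A fold of at least 5 was found for 7 of the 24 peaks (29.2%, Wilson interval 14.9% to 49.2%), against 56.8% of the list. The 15 peaks between the segments had a median fold of 4.79 (2.81 to 6.42). The 130 peaks on the side of the telomere, between the chromosome end and the first segment, had a median of 4.48 (3.74 to 5.16), also below the list, and the 44 in the 2 Mb on the side of the centromere had 6.51 (4.51 to 9.02). These are descriptions of neighbouring peaks in 1 pooled list, and the difference was not tested.

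The median pileup over both segments, 74.5 fragments (28 to 97), was not below that of the list, 56 fragments. The median local background was 15.7 fragments over both segments (6.78 to 18.4) against 8.56 in the list. This interval included the value of the list. The side of the telomere had similar medians, a pileup of 73 fragments (55 to 91) and a background of 15.8 (14.01 to 18.5), and the background on the side of the centromere was 11.3 (6.32 to 14.8). The background reached 2 times its genome-wide value or more in 15 of the 24 peaks (62.5%), namely 4 of 9 in the H19-IGF2 segment and 11 of 15 in the KCNQ1-CDKN1C segment, compared with 34.1% of the list. This share was 46.7% between the segments and 36.9% on chromosome 11. In the list, peaks with such a background had a median fold of 8.95, but the 15 peaks of the domain had 4.19, with a range from 3.27 to 9.59. The 7 such peaks between the segments had 5.49, also below the list. Compared with peaks of the list of similar background, 21 of the 24 lay below the median fold of their bin and 17 below its lower quartile, and only the peak from 2089173 to 2089978 was above the upper quartile. Between the segments, the median fold was also below that of the list at similar background, in classes up to 5 times the genome-wide value. At 2 to 3 times the genome-wide value, 4 peaks there had 3.93 against 8.13. At 3 to 5 times, 2 peaks had 8.17 against 9.9. A further peak there, from 2399822 to 2400917, had a background of 6.91 times the genome-wide value and lay outside these classes. Its fold was 12.3, and its −log10 q-value of 380 was above those of all 24 peaks of the segments. The fold and the background are not independent measures, because the background is the divisor of the fold and also contains the fragments of the peaks themselves.

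**Figure D4:**
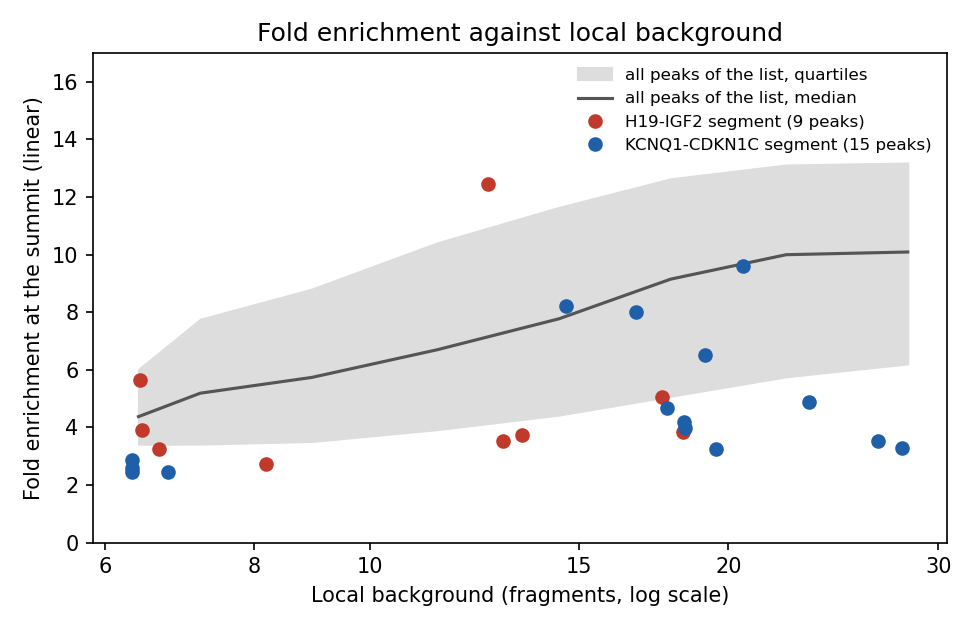
Fold enrichment at the summit (linear) against local background in fragments (log scale), for the 9 and 15 peaks of the segments and, as a line and a band, the median and quartiles of all peaks of the list in bins of background. Of the 24 points, 17 lie below the lower quartile of their bin and 1, at a fold of 12.4, above the upper quartile.

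Peak widths differed in range more than in their median. The median was 624 bp in the H19-IGF2 segment (578 to 825 bp) and 583 bp in the KCNQ1-CDKN1C segment (410 to 1106 bp), and that of the list was 590 bp. Widths of 1000 bp or more occurred in 5 of the 15 peaks of the KCNQ1-CDKN1C segment (33.3%, Wilson interval 15.2% to 58.3%) and in 0 of the 9 of the H19-IGF2 segment (Wilson interval up to 29.9%, or up to 33.3% by the limit of 3 counts that a count of 0 allows), against 22.9% of the list. The 5 broad peaks had folds of 3.54, 4.89, 8.00, 8.20 and 9.59, where the list had a median of 9.88 for peaks of this width. In bins of similar width, 20 of the 24 peaks had a −log10 q-value below the median of the list, and 12 were below the lower quartile. The exceptions above the upper quartile were the peaks from 2089173 to 2089978 and from 2532800 to 2533281.

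**Figure D5:**
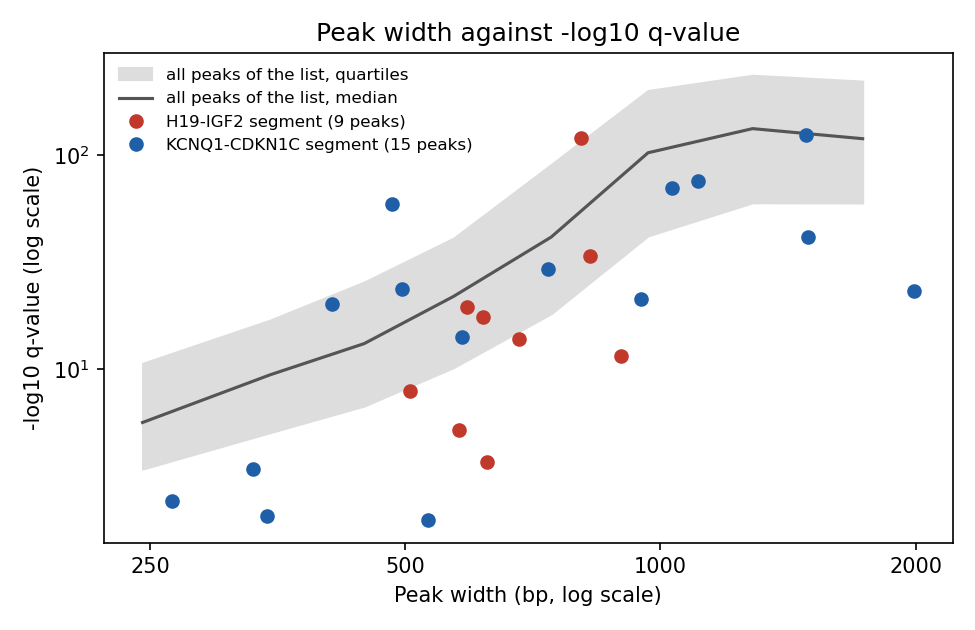
Peak width (bp, log scale) against −log10 q-value (log scale) for the peaks of both segments, with the median and quartiles of all peaks of the list in bins of width as a line and a band. The widest point, at 1991 bp, has a −log10 q-value of 23.2, and 12 of the 24 points lie below the lower quartile of their bin.

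The summit lay in the middle of the width (between 33.3% and 66.7% of it) in 5 of 9 peaks of the H19-IGF2 segment and in 6 of 15 of the KCNQ1-CDKN1C segment, against 52.4% of the list. In the broad peak from 2884647 to 2886138 the summit was at 80.6% of the width, counted from its lower coordinate, and in the widest peak, from 2929015 to 2931005, at 18.4%. The strongest peaks of the segments had theirs at 63.0% and 58.8%.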

How the data were processed

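ATAC-seq was measured in 4 libraries, each from 50000 cells with 8 cycles of PCR according to the labels. Per the labels and the methods, reads were trimmed with Trimmomatic, aligned with Bowtie2 to GRCh38.p10 and duplicates marked with Picard, before MACS2 peak calling. The authors deposited 1 peak list from the merged samples, with a score, a fold enrichment as a linear ratio, and the −log10 of the p-value and q-value of each peak (highest q-value 0.0487). Columns of single samples number 0, so the depth of a library cannot be read from it.

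Positions were converted to 1-based coordinates. Pileup and background were recovered from the fold enrichment (pseudocount 1) and the Poisson p-value, with a tolerance of 0.001 on its −log10, which fitted 48727 peaks. The recovery was tested on simulated data and returned 100.0% of 500 pileups. The interval of a fold takes the background as fixed. Bins of width and background, runs (gaps under 10000 bp) and tiles were set with the data known. Python 3.11.15, numpy 2.4.6, pandas 2.3.3, scipy 1.17.1 and matplotlib 3.10.9 were used. No test was made, since pooled peaks give no replicates.

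The domain, its borders and the gene list were chosen with earlier results of these data known. The peaks named were, by rule, all of the H19-IGF2 segment and, in the other, the strongest, the widest and those flanking the longest gap. The others of that segment were named after their values were seen. The planned neighbouring genes, promoters and motifs are not reported, because a GRCh38 annotation and sequence were not used here. The alternatives were stricter q-values, joining of close peaks, membership by summit and wider borders.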

Additional observations from a re-analysis of the deposited data

How the results depend on the processing

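Each of 13 values (numbers, densities and medians of width, fold, −log10 q-value and gap) was recomputed under 5 alternatives. All 65 recomputed values stayed within 1.5 times the number of peaks or within the 95% interval of the value as reported, but with 9 and 15 peaks these intervals are wide. Restricted to peaks of −log10 q-value 5 or more, the KCNQ1-CDKN1C segment kept 11 peaks and the H19-IGF2 segment 8. The median width of the KCNQ1-CDKN1C segment then rose from 583 to 948 bp and its median gap fell to 9234 bp from 14514 bp, since the 4 peaks removed were narrow and lay far apart. Its longest gap grew instead. It then ran from 2700799 to 2884647, longer than the 137436 bp of the full list. Membership by summit changed no value. Widening both segments by 20000 bp gave 12 and 18 peaks. The alternatives for gene starts and for single replicates were not run. No paired analysis was possible because each value stems from all 4 libraries together. The relative counting error was largest for the weak peaks, with 17 fragments at the lowest summit. The effect of depth was not tested.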
